A study of Arabidopsis thaliana with 8 samples.

Results

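The xyloglucan endotransglucosylase/hydrolase (XTH) family of Arabidopsis thaliana was followed through an immune treatment of wild-type and smn2 seedlings. Its 33 genes, XTH1 to XTH33, were taken by locus identifier from a table of 28642 loci, a rule that reads no measured value. The 4 groups were smn2 -/- seedlings at 4 h and at 0 h of 0.1 µM flg22 and wild-type (WT) seedlings at 4 h and at 0 h, with 2 biological replicates each, numbered 910 and 918. All were of the accession Landsberg erecta, 14 days old, grown at 22 °C on GM medium and harvested whole, roots included. flg22, a stretch of bacterial flagellin, sets off immune signalling in plants. SMN2 is, as background and not from the labels, the gene HEN2, whose helicase passes nuclear RNA on to be degraded by the exosome. A mock-treated 4 h group was not analysed here, and a difference between 4 h and 0 h combines flg22 with time of day and handling.

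Xyloglucan is the main hemicellulose of the primary cell wall in this plant, where it binds cellulose microfibrils and links them to each other. XTH enzymes cut a xyloglucan chain and join the cut end to another chain (endotransglucosylase activity) or to water (hydrolase activity), and by this they loosen, reinforce or rebuild the wall of growing cells. Most members belong to groups I and II, known as endotransglucosylases. XTH1 to XTH26, which include an ancestral group, are counted together below as groups I and II. XTH31 and XTH32 form group IIIA, which is hydrolase-like, and XTH27 to XTH30 with XTH33 form group IIIB. Many members are known for expression in one organ, often the root, and XTH22 is the touch-inducible gene TCH4.

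Libraries held 6856882 to 15791296 gene reads, of which the single most abundant locus took 25.2% to 38.8%. XTH genes had 5325 to 23618 reads per library, or 0.0737% to 0.150% of gene reads, and 99.8% to 99.9% of those reads were placed at 1 position only. Levels are given below as CPM (reads per 1000000, TMM-scaled), which compare 1 gene between libraries, or as RPKM (exon reads per kilobase and per 1000000), which compare genes. In lists of 2 values the library numbered 910 precedes the library numbered 918. HEN2, the mutated gene, was read at 11.95 and 15.1 CPM in 4 h smn2 seedlings, against 55.7 and 50.0 CPM in 4 h WT seedlings. The 0 h levels were 10.6 and 9.71 CPM for smn2, against 34.7 and 32.0 CPM for WT, so that every smn2 library lay below every WT library.

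The members share a catalytic stretch, and it is shown here for those on which the 4 h results turn, so that the genes that moved can be compared at the site that cuts xyloglucan. Capitals mark the codons of the catalytic glutamate that attacks the chain, of an aspartate, and of the glutamate that acts as acid and base. The sequences were read from the RefSeq genome TAIR10.1 and run 5′ to 3′ on the coding strand. Each is 51 bases long. The first 4 are from groups I and II, the next from group IIIB and the last from group IIIA.
XTH13: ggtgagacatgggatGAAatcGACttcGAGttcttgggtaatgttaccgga
XTH6: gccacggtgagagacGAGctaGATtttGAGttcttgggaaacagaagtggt
XTH9: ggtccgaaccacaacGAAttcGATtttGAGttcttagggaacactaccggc
XTH18: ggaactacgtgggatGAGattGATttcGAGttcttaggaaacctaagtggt
XTH30: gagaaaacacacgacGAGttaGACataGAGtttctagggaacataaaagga
XTH33: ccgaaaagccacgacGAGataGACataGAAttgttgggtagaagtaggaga
XTH31: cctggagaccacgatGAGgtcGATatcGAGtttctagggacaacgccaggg
XTH32: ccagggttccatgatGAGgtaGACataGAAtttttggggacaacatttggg
They lie within 1 exon each, at chr5:23303633-23303683 (XTH13, minus strand), chr5:26299604-26299654 (XTH6, plus), chr4:1416526-1416576 (XTH9, plus), chr4:14826557-14826607 (XTH18, minus), chr1:11576248-11576298 (XTH30, plus), chr1:3480294-3480344 (XTH33, minus), chr3:16447870-16447920 (XTH31, minus) and chr2:15474061-15474111 (XTH32, minus). A stretch of this kind was found in 32 of the 33 members, with XTH11 the one in which the pattern had no match. The codon before the last capitals was ttt or ttc in all 25 members of groups I and II that had the stretch. It was ata or atc in XTH29 to XTH33, and ttt in XTH27 and XTH28. Coding sequences of the 33 members were 44.0% to 89.4% identical over 528 pairs, with a median of 54.6%.

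In these seedlings XTH24 (AT4G30270), first described from meristems as MERI5, was the most abundant member per exon length. Its RPKM was 150 and 68.6 in smn2 at 4 h, 115 and 66.1 in smn2 at 0 h, 120 and 65.2 in WT at 4 h, and 222 and 85.1 in WT at 0 h. It led the family in 7 of the 8 libraries and made up 19.4% to 31.2% of the family's summed RPKM. The exception was the smn2 library 918 at 4 h, where XTH18 stood first with 25.5% against 24.3% for XTH24. After XTH24, the order in WT at 0 h by mean RPKM was XTH4 (64.0), XTH9 (43.1), XTH18 (42.6), XTH27 (36.6), XTH14 (34.7), XTH22 (34.5) and XTH7 (33.9). The libraries 910 and 918 of this group differed in scale, with family sums of 773 and 372 RPKM. Within each of them XTH9 and XTH18 stood above XTH27, XTH14 and XTH7, by little in 910 (53.4 and 53.7 RPKM against 47.2 to 51.8). The order of XTH9 and XTH18 and the place of XTH22 differed between the libraries, and XTH9 to XTH7 are not ranked further. XTH4 is known from growing and woody tissue, and XTH27 from leaf veins. Between 20 and 26 members reached 1 RPKM in a library. XTH1, XTH2, XTH3 and XTH10 had 7, 5, 5 and 31 reads over all 8 libraries and were too low to test, which left 29 members in the tests below.

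**Figure D1:**
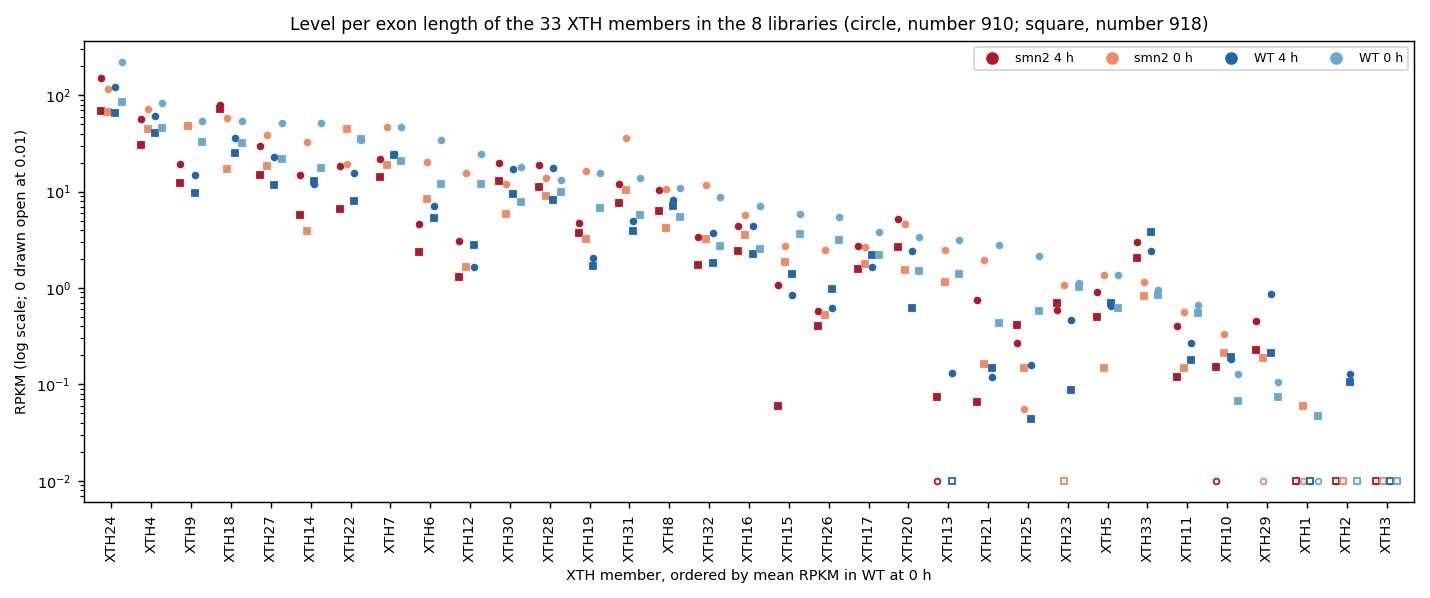
RPKM (log scale) of each of the 33 XTH members in each of the 8 libraries, ordered along the x axis by the mean in WT at 0 h; colours are the groups, circles and squares the replicates 910 and 918, and open symbols at the bottom are values of 0. XTH24 leads with 65.2 to 222 RPKM, and the untested members XTH1, XTH2 and XTH3 lie at or near 0.

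At 4 h of flg22, in both genotypes, more of the tested members were lower than higher. In smn2, 7 of 29 members fell and 2 rose at an edgeR adjusted p under 0.05, where 8.88% of all 19649 tested loci fell and 12.6% rose. In WT, 7 of 29 fell and 1 rose, where 6.56% of tested loci fell and 10.1% rose. The median log2 change over the 29 members was -0.52 in smn2 and -0.70 in WT, against -0.0374 and -0.0122 over all tested loci. The share of members that fell was thus above the background share in both genotypes, and the share that rose was below it. Leaving out 1 library moved the falls to between 3 and 10 members in smn2 and between 2 and 9 in WT. The smn2 falls numbered 3 without the smn2 4 h library 918, where 2.95% of all tested loci fell, and 4 without the smn2 4 h library 910 (3.58% of loci). The WT falls numbered 2 without the WT 4 h library 910 (2.94% of loci) and 4 without the WT 0 h library 910 (2.47% of loci). With the replicate number as a block 7 members fell and 3 rose in smn2, where 11.3% of all tested loci fell and 14.6% rose. In WT 9 fell and 1 rose with the block, where 8.66% of loci fell and 12.1% rose. Without a filter on low counts 11 of 33 members were lower in smn2, where 8.84% of loci fell. In WT they were 14 of 33 in that fit, against 7.87% of loci. A fall in whole seedlings can come from fewer cells of the type that expresses a gene or from less RNA per cell, and these cannot be told apart. Of the 29 tested members, 20 had every group above the filter's cutoff of 1.09 CPM. For 6 tested members no 4 h group had both libraries at the cutoff: XTH11, XTH13, XTH21, XTH23, XTH25 and XTH29. XTH13 reached the cutoff only at 0 h and XTH25 only in WT at 0 h, so each was tested because of the groups in which it was high. The falls of XTH13 in both genotypes and of XTH25 in WT are counted above, but they add no support for a fall of the family. XTH11 and XTH23, which were not called, had both libraries at the cutoff only in groups at 0 h. XTH11, XTH13, XTH23 and XTH25 all enter the medians and shares above, which were not computed without them.

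XTH6, XTH9 and XTH13 fell in both genotypes, which is 3 of the 7 members that fell in smn2 and 3 of the 7 that fell in WT. The share of all fallen loci that fell in both genotypes was not computed, so this overlap has no background. XTH13 is among them although it was tested only through its levels at 0 h. XTH6 (AT5G65730) had 8.04 and 7.15 CPM in smn2 at 4 h, against 32.8 and 27.9 CPM in smn2 at 0 h. Its WT levels were 14.9 and 17.1 CPM at 4 h, against 53.8 and 33.2 CPM at 0 h. Both 4 h libraries lay below both 0 h libraries in each genotype. The log2 change (± SE) of XTH6 was -1.99 ± 0.27 in smn2 (edgeR adjusted p = 0.00101) and -1.45 ± 0.26 in WT (adjusted p = 0.00501). Taken within each replicate number, the log2 change was -2.02 and -1.95 in smn2, and -1.85 and -0.96 in WT. The calls of XTH6, and those of XTH13 below, held in both genotypes under every alternative run and without any single library.

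XTH9 (AT4G03210), known from shoot apices and elongating stems, had 32.6 and 35.4 CPM in smn2 at 4 h, against 78.4 and 155 CPM in smn2 at 0 h. It had 30.9 and 30.8 CPM in WT at 4 h, against 82.0 and 88.5 CPM in WT at 0 h. All 4 libraries at 4 h were close to each other and below all libraries at 0 h, of which smn2 918 was the highest. The log2 change was -1.77 ± 0.29 in smn2 (edgeR adjusted p = 0.00274) and -1.46 ± 0.29 in WT (adjusted p = 0.00869). In WT the call was lost without the 4 h library 910 (adjusted p = 0.0604) or 918 (adjusted p = 0.0638).

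XTH13 (AT5G57540), known with its neighbour XTH12 from roots, was nearly silent at 4 h. It had 0 and 0.163 CPM in smn2 at 4 h, against 3.02 and 2.88 CPM in smn2 at 0 h. WT libraries had 0.210 and 0 CPM at 4 h, against 3.76 and 2.86 CPM at 0 h. In reads, these were 1 against 55 in smn2, a depth-scaled ratio of 0.0219 (95% counting interval 0.000545 to 0.127), and 2 against 99 in WT, a ratio of 0.0340 (0.00406 to 0.126). Both falls passed the test, with an edgeR adjusted p of 0.00430 in smn2 and 0.00465 in WT. The fitted size depends on the few reads left, with log2 values of -5.24 in smn2 and -4.71 in WT that became -7.96 without the smn2 4 h library 918 and -8.08 without the WT 4 h library 910, and -4.08 and -3.91 without the other 4 h library of each genotype. The counting intervals cover counting error only.

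**Figure D2:**
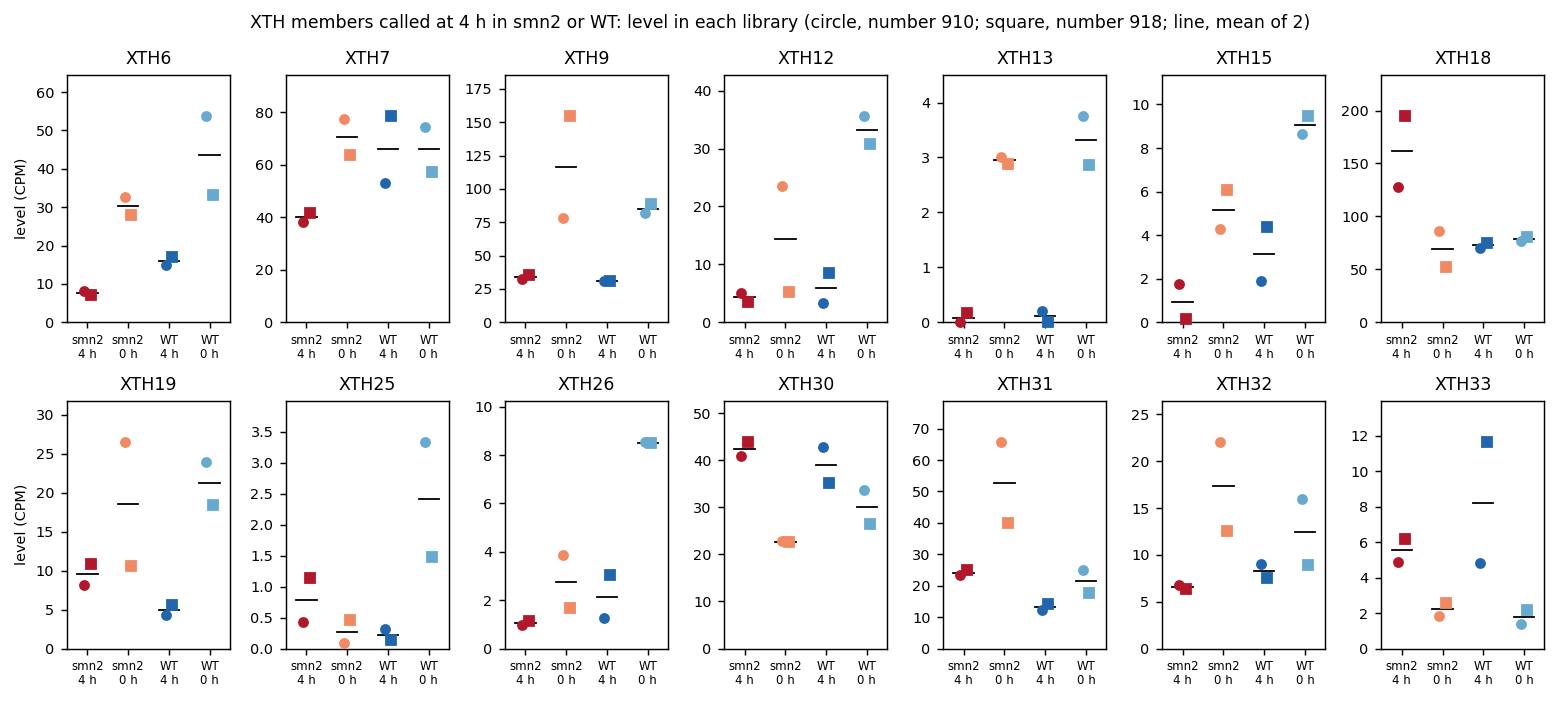
Level (CPM, linear scale from 0) of the 14 XTH members that passed the test at 4 h in smn2 or in WT, by group, with circles and squares for the replicates 910 and 918 and a line at the mean of 2. XTH6, XTH9 and XTH13 lie lower at 4 h in both genotypes, whereas XTH18 stands out at 128 and 195 CPM in smn2 at 4 h.

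In smn2, XTH7, XTH15, XTH31 and XTH32 also fell, and their change did not pass in WT. XTH31 (AT3G44990), for which both joining and hydrolase activity are known, had 23.4 and 24.9 CPM in smn2 at 4 h, against 65.7 and 39.9 CPM in smn2 at 0 h. For WT the levels were 12.2 and 14.3 CPM at 4 h, against 24.9 and 17.8 CPM at 0 h. The 4 h libraries lay below the 0 h libraries in both genotypes, on a higher level in smn2. The log2 change was -1.14 ± 0.27 in smn2 (edgeR adjusted p = 0.0162) and -0.70 ± 0.28 in WT (adjusted p = 0.119). XTH32 (AT2G36870), the other group IIIA gene, had 6.74 and 6.34 CPM in smn2 at 4 h, against 22.0 and 12.6 CPM in smn2 at 0 h, a log2 change of -1.42 ± 0.36 (edgeR adjusted p = 0.0213). Its WT levels of 9.02 and 7.54 CPM at 4 h overlapped with 16.0 and 8.89 CPM at 0 h (-0.60 ± 0.35, adjusted p = 0.280). Thus both group IIIA genes fell in smn2 and neither passed in WT. XTH31 lost its call without the smn2 4 h library 910 (adjusted p = 0.101) or 918 (0.0813) or the smn2 0 h library 910 (0.108). XTH32 lost it without the same libraries (0.104, 0.113 and 0.135).

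XTH15 (AT4G14130), known for its part in the elongation of shaded seedlings, had 1.74 and 0.163 CPM in smn2 at 4 h, against 4.27 and 6.07 CPM in smn2 at 0 h. WT seedlings had 1.89 and 4.37 CPM at 4 h, against 8.64 and 9.48 CPM at 0 h. The 4 h libraries were lower in both genotypes, with log2 changes of -2.26 ± 0.66 in smn2 (edgeR adjusted p = 0.0361) and -1.55 ± 0.55 in WT (adjusted p = 0.0840). In WT it passed with DESeq2 (adjusted p = 0.0457), in the 4 WT libraries alone (0.0277) and without the smn2 4 h library 910 (0.0411) or 918 (0.0407). The value in smn2 was -1.54 without the 4 h library 918 (adjusted p = 0.131), -4.87 without the 4 h library 910 (0.0165) and -2.0 without the 0 h library 918 (0.0930), and the call was lost in a fit of the 4 smn2 libraries alone (0.0648). XTH7 (AT4G37800) had 38.4 and 41.6 CPM in smn2 at 4 h, against 77.7 and 63.9 CPM in smn2 at 0 h, and 53.3 and 78.7 CPM in WT at 4 h, against 74.5 and 57.4 CPM in WT at 0 h. It changed least among the called members, by -0.83 ± 0.24 in smn2 (edgeR adjusted p = 0.0373) and by less than its SE of 0.24 in WT (adjusted p = 0.998). Its call in smn2 was lost without the 4 h library 910 (adjusted p = 0.177) or 918 (0.130) or the 0 h library 910 (0.149).

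The members that rose in smn2 were XTH18 and XTH30. XTH18 (AT4G30280), a root-expressed endotransglucosylase of the root-hair zone, had 128 and 195 CPM in smn2 at 4 h, against 86.0 and 52.6 CPM in smn2 at 0 h. In WT the levels were 70.5 and 74.6 CPM at 4 h, against 77.2 and 80.7 CPM at 0 h. The smn2 libraries at 4 h stood above the other 6 libraries, which ranged from 52.6 to 86.0 CPM. The log2 change of XTH18 was 1.22 ± 0.28 in smn2 (edgeR adjusted p = 0.0136) and -0.12 ± 0.27 in WT (adjusted p = 0.806). Within each replicate number the change in smn2 was 0.58 and 1.89. It was 0.88 without the smn2 4 h library 918 (adjusted p = 0.107) and 0.91 without the smn2 0 h library 918 (adjusted p = 0.0657), and neither value passed. XTH30 (AT1G32170) had 41.0 and 43.9 CPM in smn2 at 4 h, against 22.8 and 22.6 CPM in smn2 at 0 h, and 42.8 and 35.2 CPM in WT at 4 h, against 33.7 and 26.6 CPM in WT at 0 h. It changed by 0.90 ± 0.20 in smn2 (edgeR adjusted p = 0.0120; 0.0719 without the smn2 4 h library 918) and by 0.37 ± 0.20 in WT (adjusted p = 0.236).

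In WT, XTH12, XTH19, XTH25 and XTH26 fell and their change did not pass in smn2. XTH12 (AT5G57530) had 5.0 and 3.58 CPM in smn2 at 4 h, against 23.5 and 5.16 CPM in smn2 at 0 h. For WT the levels were 3.25 and 8.47 CPM at 4 h, against 35.7 and 30.8 CPM at 0 h. The smn2 0 h library 918 was already near the 4 h level. The log2 change was -1.76 ± 0.64 in smn2 (edgeR adjusted p = 0.0786) and -2.52 ± 0.62 in WT (adjusted p = 0.0220). XTH12 passed in smn2 also with DESeq2 (adjusted p = 0.0124) and without the smn2 0 h library 918 (-2.43, edgeR adjusted p = 0.0052). XTH19 (AT4G30290), the root-expressed neighbour of XTH18, had 8.15 and 10.9 CPM in smn2 at 4 h, against 26.5 and 10.6 CPM in smn2 at 0 h. Its WT levels were 4.30 and 5.56 CPM at 4 h, against 23.9 and 18.5 CPM at 0 h. The groups overlapped in smn2 and not in WT, with log2 changes of -0.99 ± 0.40 in smn2 (edgeR adjusted p = 0.106) and -2.11 ± 0.41 in WT (adjusted p = 0.00817). Without the smn2 0 h library 918 the fall of XTH19 passed in smn2 also, at -1.49 (adjusted p = 0.00969). In WT, XTH12 lost its call without the 4 h library 910 (-1.99, adjusted p = 0.140) or the 0 h library 910 (-2.41, 0.0795) and had -3.35 without the 4 h library 918 (0.0450), and XTH19 lost it without the 4 h library 910 (-1.95, 0.0703).

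XTH26 (AT4G28850), a root-hair gene, had 0.978 and 1.14 CPM in smn2 at 4 h, against 3.86 and 1.67 CPM in smn2 at 0 h, a log2 change of -1.45 ± 0.56 (edgeR adjusted p = 0.0976). Its WT levels were 1.26 and 3.04 CPM at 4 h, against 8.54 and 8.49 CPM at 0 h (-2.01 ± 0.47, adjusted p = 0.0187). The 4 h libraries lay below the 0 h libraries in both genotypes. XTH25 (AT5G57550) was read 11 times in smn2 at 4 h, against 4 times in smn2 at 0 h. In WT it was read 4 times at 4 h (0.315 and 0.132 CPM), against 77 times at 0 h (3.33 and 1.48 CPM). Its log2 change was 1.66 ± 1.02 in smn2 (edgeR adjusted p = 0.284) and -3.34 ± 0.87 in WT (adjusted p = 0.0283), and only the libraries of WT at 0 h stood clearly above the level that 3 reads give. The WT call of XTH25 was lost without the 4 h library 910 (-4.11, adjusted p = 0.108) or 918 (-2.92, 0.162) or the 0 h library 910 (-2.61, 0.212). The WT call of XTH26 was lost without the 4 h library 910 (-1.50, adjusted p = 0.116), the 0 h library 910 (-2.0, 0.0834) or the 0 h library 918 (-2.01, 0.0586), and its value was -2.74 without the 4 h library 918 (0.0262). In smn2, XTH26 passed without the 0 h library 918 (-1.87, adjusted p = 0.0439).

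XTH33 (AT1G10550), which carries a predicted membrane anchor, was the only member that rose in WT. Its smn2 levels were 4.89 and 6.18 CPM at 4 h, against 1.84 and 2.58 CPM at 0 h. The WT levels were 4.82 and 11.6 CPM at 4 h, against 1.40 and 2.17 CPM at 0 h. Every library at 4 h lay above every library at 0 h. The log2 change was 1.34 ± 0.49 in smn2 (edgeR adjusted p = 0.0797) and 2.22 ± 0.47 in WT (adjusted p = 0.0115). With the replicate number as a block XTH33 rose in smn2 also (1.33, edgeR adjusted p = 0.0268), and so it did without the WT 4 h library 910 (adjusted p = 0.0444). The call in WT was lost without the 4 h library 918 (1.47, adjusted p = 0.0993) or the 0 h library 910 (1.90, adjusted p = 0.0977). XTH30 and XTH33 belong to group IIIB, of which 0 of 5 tested members fell in either genotype, a count that the background shares of 8.88% and 6.56% would also give. Of the 22 tested members of groups I and II, 5 fell and 1 rose in smn2, and 7 fell and 0 rose in WT. The difference between these groups of members was not tested.

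**Figure D3:**
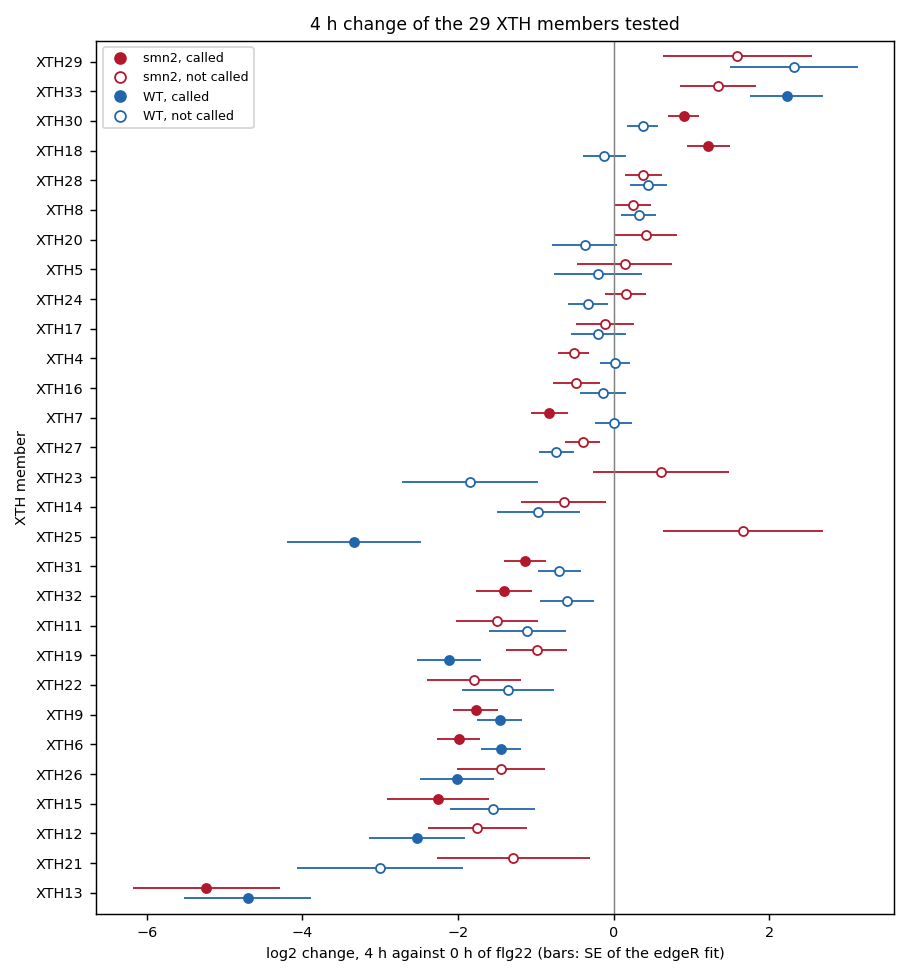
Log2 change at 4 h against 0 h of the 29 tested XTH members in smn2 (red, upper symbol) and WT (blue, lower symbol); filled symbols passed an edgeR adjusted p of 0.05, open ones did not, and bars are the SE of the fit. The estimate is negative in both genotypes for 17 members, positive in both for 5 and of opposite sign for 7, among them XTH18 and XTH25.

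The remaining 15 tested members passed in neither genotype. Their log2 changes ranged from -1.80 to 1.59 in smn2 and from -3.00 to 2.32 in WT, with negative estimates for 8 in smn2 and 11 in WT. The touch gene XTH22 (AT5G57560, TCH4) had 29.9 and 18.04 CPM in smn2 at 4 h, against 29.6 and 139 CPM in smn2 at 0 h. Levels in WT were 31.0 and 23.9 CPM at 4 h, against 50.0 and 91.4 CPM at 0 h. The libraries numbered 918 were the high ones at 0 h in both genotypes. The log2 change of XTH22 was -1.80 ± 0.61 in smn2 (edgeR adjusted p = 0.0622) and -1.36 ± 0.60 in WT (adjusted p = 0.156). XTH22 passed in WT in the 4 WT libraries alone (edgeR adjusted p = 0.0168). Without a filter on low counts it passed in smn2 (edgeR adjusted p = 1.2e-10) and in WT (1.2e-06). Without the smn2 0 h library 910 it passed in smn2 (-2.53, adjusted p = 0.00233) and in WT (adjusted p = 0.0174), and without the smn2 0 h library 918 in WT (adjusted p = 0.0166). XTH24, the most abundant member, changed by 0.15 ± 0.26 in smn2 and by -0.33 ± 0.26 in WT, with overlapping libraries in both genotypes. XTH27 came closest to the threshold in WT among the 15, at -0.74 ± 0.23 (edgeR adjusted p = 0.0536) with 63.1 and 46.8 CPM at 4 h, against 105 and 78.2 CPM at 0 h. It passed with the replicate block (adjusted p = 0.0179) and with exon reads (0.0495). XTH21, a root gene, also passed in WT with the block (-2.90, adjusted p = 0.0322; 0.0861 without it).

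Whether the 4 h change differed between genotypes was tested directly, as the smn2 change minus the WT change. No member passed, and 0% of all tested loci were called in either direction. At an unadjusted edgeR p under 0.05 the difference was positive for 2 members and negative for 1. The share of all loci at that unadjusted threshold was not computed, here or below, so such counts have no background. DESeq2 called 0 members, where it called 26 of 26915 loci higher and 3 lower. XTH18 had a difference of 1.34 ± 0.39 (unadjusted p = 0.00684, edgeR adjusted p = 0.853). XTH25 had 5.002 ± 1.35 (unadjusted p = 0.00440, edgeR adjusted p = 0.841) on the few reads given above. In the fit without a filter on low counts both passed, at an edgeR adjusted p of 0.0322 for XTH18 and 0.0337 for XTH25. XTH7 had -0.83 ± 0.34 (unadjusted p = 0.0357, edgeR adjusted p = 1.0). A call in 1 genotype and not in the other is therefore not shown to be a difference between them for any member in the filtered fit.

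The genotypes were also compared at each time, with the same libraries as in the comparisons above. At 0 h, 0 of 29 members passed, where 0.733% of tested loci were higher and 0.27% lower in smn2. DESeq2 called 1 member higher, where it called 231 of 26915 loci higher and 118 lower. At an unadjusted p under 0.05 edgeR had 1 member higher and 2 lower. The higher one was XTH31, whose smn2 libraries (65.7 and 39.9 CPM) lay above its WT libraries (24.9 and 17.8 CPM), a log2 difference of 1.31 ± 0.27 (edgeR adjusted p = 0.0631, DESeq2 adjusted p = 0.00584). With the replicate number as a block it passed in edgeR (1.30, adjusted p = 0.0351), and so it did without the smn2 0 h library 918 (1.62, adjusted p = 0.0249). The lower ones were XTH25, with 0.0838 and 0.455 CPM in smn2 and 3.33 and 1.48 CPM in WT (-3.37 ± 0.87, edgeR adjusted p = 0.152), and XTH26 (-1.56 ± 0.45, adjusted p = 0.214). Without the smn2 0 h library 910, XTH12 (-2.69) and XTH14 (-2.33) passed as lower in smn2 (edgeR adjusted p = 0.0489 for both).

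At 4 h, 0 of 29 members passed, where 0.28% of tested loci were higher and 0.0305% lower in smn2. At an unadjusted p under 0.05 edgeR had 3 members higher and 3 lower. DESeq2 called 1 member higher, where it called 137 of 26915 loci higher and 18 lower. DESeq2's call was XTH18, with 128 and 195 CPM in smn2 against 70.5 and 74.6 CPM in WT (1.15 ± 0.28, edgeR adjusted p = 0.208, DESeq2 adjusted p = 0.0213, 0.00112 in edgeR without the filter). XTH31 kept the same direction as at 0 h, with 23.4 and 24.9 CPM in smn2 against 12.2 and 14.3 CPM in WT (0.87 ± 0.28, edgeR adjusted p = 0.440). XTH6 was lower in every smn2 library than in every WT library, at 8.04 and 7.15 CPM in smn2 against 14.9 and 17.1 CPM in WT (-1.07 ± 0.27, edgeR adjusted p = 0.246).

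XTH24, XTH18 and XTH19 are neighbours on chromosome 4, and XTH18 and XTH19 are 87.6% identical in coding sequence, so their reads were examined for mixing. The window of 90 bases from the active site onwards is printed because it shows how far the root-expressed relatives XTH17, XTH18 and XTH19 can be told apart by a read. Capitals mark bases that differ from XTH18 at the same coding position.
XTH18: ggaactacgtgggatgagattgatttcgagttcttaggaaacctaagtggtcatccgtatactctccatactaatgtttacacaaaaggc
XTH17: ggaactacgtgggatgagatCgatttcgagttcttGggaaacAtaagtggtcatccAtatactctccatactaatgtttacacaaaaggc
XTH19: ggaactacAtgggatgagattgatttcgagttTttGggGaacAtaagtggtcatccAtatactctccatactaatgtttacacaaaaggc
The windows lie at chr4:14826518-14826607 (XTH18, minus strand), chr1:24257670-24257759 (XTH17, plus) and chr4:14829510-14829599 (XTH19, minus) in TAIR10.1. XTH17 differs from XTH18 at 4 and XTH19 at 6 of the 90 positions. Of all reads counted, 99.3% for XTH18, 99.3% for XTH19 and 99.0% for XTH17 were uniquely placed, and every call of a member was kept when only uniquely placed reads were used. XTH12 and XTH13, the closest pair at 89.4% identity, also had 99.5% and 99.4% unique reads. The seedlings were Landsberg erecta and the build is of another accession, and the effect of this on read placement was not tested.

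The 250 bases before the gene start of XTH18 and XTH19 are shown because these neighbours had opposite estimates at 4 h in smn2. Capitals mark the core of the W-box, TTGAC or GTCAA on the other strand, which is the site bound by WRKY factors of the immune response.
XTH18: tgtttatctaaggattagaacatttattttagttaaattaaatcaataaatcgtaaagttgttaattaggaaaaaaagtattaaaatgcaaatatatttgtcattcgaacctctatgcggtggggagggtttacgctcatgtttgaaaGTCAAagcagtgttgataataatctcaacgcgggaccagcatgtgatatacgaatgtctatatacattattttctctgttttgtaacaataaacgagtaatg
XTH19: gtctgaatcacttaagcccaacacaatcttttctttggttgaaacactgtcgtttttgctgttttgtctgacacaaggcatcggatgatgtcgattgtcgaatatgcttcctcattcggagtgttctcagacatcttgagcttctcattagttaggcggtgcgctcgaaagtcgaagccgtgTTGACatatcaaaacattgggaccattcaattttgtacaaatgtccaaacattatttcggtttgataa
They lie at chr4:14827212-14827461 and chr4:14830225-14830474, both on the minus strand of TAIR10.1. Each held 1 core. In XTH18 it was part of TTGACT, read on the other strand, and in XTH19 it was part of neither longer form given below. Over the family, 15 of 33 windows (45.5%) held TTGAC on either strand, against 44.9% of 27443 genes. The longer forms TTGACC or TTGACT, which contain the core, were in 6 members (18.2%, against 28.4% of genes). CACGTG, the G-box, was in 0 members (6.49% of genes), CGTGTG or CGTGCG, bound by the brassinosteroid factor BZR1, in 4 (12.1%, against 6.71%), and the auxin response element TGTCTC in 2 (6.06%, against 10.9%). These are matches of letters in 1 window, not sites shown to be bound.

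Because SMN2 acts on nuclear RNA, reads in introns of XTH genes were counted, without a test. They made up 1.77% and 1.58% of XTH reads in smn2 at 4 h and 2.09% and 1.26% in WT at 4 h. At 0 h they made up 2.36% and 2.75% in smn2 and 2.07% and 2.11% in WT. Both smn2 libraries lay above both WT libraries at 0 h, by less than 1 percentage point, and the groups overlapped at 4 h. Over the 13 members with at least 20 intron reads in all, the share at 4 h was higher in smn2 than in WT for 4 and lower for 9, and at 0 h higher for 7 and lower for 6. XTH24 had 123 intron reads of 4033 in smn2 at 0 h (3.05%), against 118 of 9482 in WT at 0 h (1.24%). XTH30 went the other way, with 2.38% in smn2 at 0 h, against 5.58% in WT at 0 h. XTH11, the member with no match to the catalytic pattern, had 83 of its 145 reads in introns (57.2%).

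The genes that make and trim xyloglucan were examined beside the enzymes that rejoin it, in a list that, like those after it, was chosen with earlier results of these data known. Of 19 such genes, 0 rose and 1 fell at 4 h in smn2, where 12.6% of all tested loci rose and 8.88% fell. In WT 0 rose and 0 fell, where 10.1% of tested loci rose and 6.56% fell. At an unadjusted edgeR p under 0.05, 2 were higher and 3 lower in WT, and DESeq2 also called 0 there. The gene that fell in smn2 was AXY8, an alpha-fucosidase that trims xyloglucan, with 10.5 and 10.9 CPM at 4 h, against 27.2 and 30.3 CPM at 0 h (-1.42 ± 0.22, edgeR adjusted p = 0.00179). At 0 h, 1 of the 19 was higher in smn2 than in WT, where 0.733% of all tested loci were higher. The higher gene was XXT4, a xylosyltransferase, with 11.9 and 11.8 CPM in smn2 against 4.03 and 4.44 CPM in WT (1.49 ± 0.28, edgeR adjusted p = 0.0462). Without 1 library its adjusted p was between 0.0522 and 0.251, whichever library was left out, and 0.120 in a fit of the 4 libraries at 0 h alone.

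Brassinosteroids are growth hormones that raise several XTH genes. Of 14 brassinosteroid genes, 4 fell and 1 rose in smn2 at 4 h, and 1 fell and 1 rose in WT, where 8.88% of all tested loci fell and 12.6% rose in smn2, and 6.56% fell and 10.1% rose in WT. The WT counts are near these shares. With the replicate number as a block 5 fell in smn2 and 2 in WT, where 11.3% and 8.66% of all tested loci fell. BAS1, which inactivates the hormone, had 1.63 and 2.28 CPM in smn2 at 4 h, against 8.88 and 6.07 CPM in smn2 at 0 h, and 1.89 and 1.85 CPM in WT at 4 h, against 8.81 and 6.52 CPM in WT at 0 h. It fell in both genotypes, by a log2 of -1.97 ± 0.37 in smn2 (edgeR adjusted p = 0.00495) and -2.04 ± 0.36 in WT (adjusted p = 0.00474). Without the smn2 4 h library 910 it had -1.72 in smn2 (adjusted p = 0.0537). The gene that rose in both was BAK1, a co-receptor of the hormone and also of the flg22 receptor, by 1.08 ± 0.26 in smn2 (edgeR adjusted p = 0.0180) and 0.96 ± 0.26 in WT (adjusted p = 0.0353). BAK1 lost its call in smn2 without the 4 h library 910 (adjusted p = 0.0994) or 918 (0.0574) or the 0 h library 910 (0.0947), and in WT without any 1 WT library (0.0541 to 0.217) or either smn2 4 h library (0.0560 and 0.0564). The others that fell in smn2 were the synthesis genes CPD (-0.95, edgeR adjusted p = 0.0287) and BR6OX2 (-0.87, 0.0421) and the transcription factor gene BES1 (-0.77, 0.0405). CPD lost its call without the smn2 4 h library 910 (adjusted p = 0.0982) or 918 (0.172) or the smn2 0 h library 918 (0.113). BR6OX2 lost it without the smn2 4 h library 910 (0.155) or 918 (0.167), the smn2 0 h library 910 (0.255), either WT 0 h library (0.0560 and 0.0568) or the WT 4 h library 918 (0.0506), and BES1 without the smn2 4 h library 910 (0.218) or 918 (0.107), the smn2 0 h library 910 (0.201) or either WT 0 h library (0.0525 and 0.0519). BR6OX2 did not pass with DESeq2 (0.0599), exon reads (0.0526) or the 4 smn2 libraries alone (0.0684), nor BES1 with the 4 smn2 libraries alone (0.0600). Of the 3 touch-inducible calmodulin genes, CAM2 rose in smn2 (0.93 ± 0.18, edgeR adjusted p = 0.00571) and 0 passed in WT, where 1 was higher at an unadjusted p under 0.05 and DESeq2 called 0. With the replicate block 2 of the 3 rose in smn2, where 14.6% of all tested loci rose.

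Whole seedlings hold roots, and markers of roots were therefore counted. Of 16 markers of roots and root hairs, 14 were tested. In smn2 at 4 h, 2 fell and 1 rose, with a median log2 change of -0.81. In WT 4 fell and 1 rose, with a median of -1.20. Over all tested loci 8.88% fell and 12.6% rose in smn2, which is near the smn2 count, and 6.56% fell and 10.1% rose in WT. With the replicate block 3 markers fell in smn2 and 5 in WT, where 11.3% and 8.66% of all tested loci fell. PYK10, a glucosidase of root ER bodies, had 868 and 1399 CPM in smn2 at 4 h, against 2348 and 2912 CPM in smn2 at 0 h, whereas the WT levels were 729 and 719 CPM at 4 h, against 2656 and 1849 CPM at 0 h. It fell by 1.21 on the log2 scale in smn2 (edgeR adjusted p = 0.0304) and by 1.64 in WT (adjusted p = 0.0108). The call of PYK10 was lost in smn2 without the 4 h library 910 (-0.91, adjusted p = 0.209) or 918 (0.0537) or the 0 h library 918 (0.100), and in WT without the 4 h library 910 (0.0607) or 918 (0.0678) or the 0 h library 910 (0.0718). In the 4 smn2 libraries alone the smn2 calls of PYK10 (adjusted p = 0.0536), PRP3 (0.0650) and RHD2 (0.0546) did not pass. The other 15 markers summed to 138 and 125 CPM in smn2 at 4 h, against 179 and 93.0 CPM in smn2 at 0 h. For WT they summed to 172 and 205 CPM at 4 h, against 260 and 198 CPM at 0 h. These sums overlapped between times in both genotypes, while PYK10 did not. RHD2, which rose, made up 60.2 and 54.0 CPM of the smn2 sums at 4 h, against 32.0 and 13.4 CPM at 0 h. In WT it made up 86.0 and 98.0 CPM at 4 h, against 47.7 and 31.9 CPM at 0 h. Of the 14 tested markers, 12 had negative estimates in smn2 and 13 in WT. Both 4 h libraries lay below both 0 h libraries for 7 markers in smn2 and 12 in WT, and above them for 1 in each. The shares of all tested loci with a negative estimate or with libraries apart in this way were not computed. These counts of markers are therefore not read as a fall of root markers in general. PRP3, a root hair wall protein, fell in both genotypes (edgeR adjusted p = 0.04997 in smn2 and 0.0149 in WT). In smn2 its call was lost without any 1 library other than the smn2 0 h library 918, and its log2 change was -0.51 without the smn2 0 h library 910. In WT its call was lost without the 4 h library 910 (-1.83) or the 0 h library 910 (-1.86). ADF8 and COBL9 fell in WT. ADF8 lost its call without any 1 WT library (-1.20 without the 4 h library 910). COBL9 lost its call without either WT 4 h library, the WT 0 h library 910 (-0.95) or either smn2 4 h library. RHD2, the oxidase of root hair growth, was the marker that rose in both genotypes, by 1.31 in smn2 (edgeR adjusted p = 0.0284) and 1.21 in WT (adjusted p = 0.0437). Its call was lost in smn2 without either 4 h library (0.122 and 0.0866) or the 0 h library 918 (0.0828), and in WT without any 1 WT library (0.0748 to 0.198) or either smn2 4 h library (0.0690 and 0.0693). IRT1 was at 0 in both smn2 libraries at 4 h, and BRN1 in 1 of them and in 1 smn2 library at 0 h. WER and TIP2;3 were at 0 in 1 smn2 library at 4 h. No marker was at 0 in WT, but IRT1 had only 0.0988 to 0.397 CPM there. IRT1 and WER were too low to test. The smn2 4 h libraries held 8371963 and 6856882 gene reads, against 9729245 and 8635658 in WT at 4 h, so these values of 0 are limited by depth. The part of root content or root cell state in the changes of XTH12, XTH13, XTH18, XTH19 and XTH26 was not tested.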

How the data were processed

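The counts deposited by the authors are, per the file headers, total and uniquely placed reads per locus in genes, exons and introns of 8 Ion Proton libraries, not normalized. RPKM, per the file headers, were computed by the authors from exon length and library size and used as deposited. Poly(A) RNA was selected on Dynabeads, per the labels' protocols. The build is TAIR10, per the submitters' processing notes; the aligner, the annotation and any use of strand were not given in the sources used here, so antisense reads cannot be told apart.

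Total gene counts were tested with edgeR 4.0.16 (quasi-likelihood, TMM, filterByExpr, R 4.3.3) in 1 fit of all 8 libraries with a coefficient per group, and p-values were adjusted by Benjamini-Hochberg over 19649 loci at 0.05. SE is the log2 value divided by the root of F. edgeR's common biological coefficient of variation came to 0.229; 3 reads correspond to 0.161 to 0.488 CPM. DESeq2 1.42.0 was an alternative. By rule, full values were given to the 12 called members with the largest change; those of XTH7, XTH22, XTH24, XTH27 and XTH30 were added after their values were seen. The fit was tested on simulated data. The family, taken whole by identifier, and the lists were chosen with earlier results of these data known. The RefSeq coding region lay inside the table's region for 31 of 33 members (not XTH1 and XTH17).

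The numbers 910 and 918 mark separate sequencing runs, per the file headers. They pair the libraries of all groups. Deviations of same-numbered libraries from their group means had correlations of 0.0477 to 0.452, so they went together for some groups and hardly for others. Each of the 17 calls of a member had the same sign within both numbers.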

Additional observations from a re-analysis of the deposited data

How the results depend on the processing

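All 17 calls of XTH members at 4 h kept direction and threshold with DESeq2, DESeq2 size factors, exon reads, unique reads, no filter and the replicate block. Against a fold of 1.5 the calls kept were 10. In smn2 0 members were then higher and 3 lower, where 7.06% of loci rose and 3.46% fell. In fits of only the 4 libraries compared 16 calls were kept. Without the filter (26915 loci tested, of which 8.84% fell in smn2 and 7.87% in WT) 11 members fell in smn2 and 14 in WT. At 0 h 1 was then higher and 4 lower in smn2 than in WT, at 4 h 1 higher and 1 lower, and 2 members had a higher change in smn2. That fit called 435 higher and 438 lower loci between the genotypes at 0 h, against 144 and 53 with the filter. DESeq2 called 1 member higher in smn2 at 0 h and 1 at 4 h. The replicate block added the calls of XTH21 and XTH27 (lower in WT), XTH33 (higher in smn2) and XTH31 (higher in smn2 than in WT at 0 h) and changed no other call of a member.

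Leaving out 1 library at a time, the members that fell numbered 3 to 10 in smn2 and 2 to 9 in WT, and those that rose 0 to 3 in smn2 and 0 to 1 in WT. The smn2 falls numbered 3 without the smn2 4 h library 918 and 4 without the smn2 4 h library 910, and the WT falls 2 without the WT 4 h library 910 and 4 without the WT 0 h library 910. Between genotypes at 0 h 0 to 1 members were higher and 0 to 2 lower, and 0 at 4 h and in the difference of the changes. XTH24 in smn2 had a log2 change between -0.045 without the 4 h library 910 and 0.33 without 918. The causes were not tested. The unique intron reads gave the same intron shares within the spread of the libraries. With 2 libraries a group, members below 1.09 CPM are limited by depth.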
